A study of Mus musculus with 8 samples.

Results

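The transcription factors that pattern the ventral forebrain and specify its interneurons were read out of a comparison of fetal mouse brains with and without prenatal stress. The 9 genes were *Dlx1*, *Dlx2*, *Dlx5*, *Dlx6*, *Lhx6*, *Lhx8*, *Nkx2-1*, *Gsx2* and *Sp8*. They were chosen by symbol from 54752 gene identifiers in the deposited count tables, with earlier results of these data known. All 9 were among the 17865 genes that passed the filter on low counts. RNA of 8 E15.5 brains of wild type C57BL/6 mice (C57BL/6Slac in the study's methods) was sequenced, 1 library per brain, from 4 control and 4 stressed fetuses, with both sexes equally represented (2 females and 2 males per group). Dams of the stress group had been exposed to chronic unpredictable mild stress (CUMS) from E5.5 to E14.5, in which fox odour, restraint in a tube, wet bedding and light at night alternated, while dams of the control group stayed in their home cages. Per the study's library table, all 4 control fetuses were littermates, as were all 4 stressed fetuses, and therefore effects of litter and of stress cannot be told apart and the spread given below is that among littermates. The same table gives the tissue as "half_whole_brain", and the methods describe whole fetal brain, so the genes of a small ventral region were measured against the RNA of all other regions.

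The ganglionic eminences are the germinal zones of the ventral telencephalon. *Gsx2* marks their early progenitors, the *Dlx* genes act in sequence as progenitors become GABAergic neurons, and *Nkx2-1* gives the medial eminence its identity and switches on *Lhx6* and *Lhx8*, which direct cortical interneurons and cholinergic projection neurons. *Sp8* is a zinc finger factor of the dorsal part of the lateral eminence and of interneurons of the olfactory bulb.

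Of the 9 factors, *Dlx2* and *Nkx2-1* were higher in the stressed brains, by 9.23% and 12.4%, each with an adjusted p below 0.05 by the quasi-likelihood test of edgeR. By DESeq2 neither passed that threshold (adjusted p = 0.0716 and 0.0807). *Dlx1* and *Dlx5* were above the control range in every stressed brain, by gaps of 0.223 and 0.0037 CPM, but missed the threshold in edgeR's test. Every stressed brain lay above every control for 8.20% of all genes tested. None of the 9 was lower, also at an unadjusted p under 0.05 and by DESeq2. *Dlx6*, *Lhx6*, *Lhx8*, *Gsx2* and *Sp8* did not pass the test. Among all genes tested, 6.49% were higher and 7.27% lower, and with 9 genes a count of 2 can be set against that share only loosely. The median Log2FC of the 9 was 0.083, against 0.0015 over all genes tested, and 8 of the 9 lay above 0, as did 50.6% of all genes tested. The 9 are not independent draws, because all were measured in the same brains, and this count was not tested. The 95% intervals of *Dlx6*, *Lhx6*, *Lhx8*, *Gsx2* and *Sp8* included 0.

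8 of the 9 genes encode a homeodomain, the DNA-binding fold coded by a homeobox of 180 bases. The stretches below, for the *Dlx* and *Lhx* genes and *Gsx2*, are coding sequence from GENCODE vM21 transcripts (GRCm38), given because closely related members could exchange reads. Each covers 48 bases of the homeobox. Capitals mark the 12 bases that code for tryptophan, phenylalanine, glutamine and asparagine of the recognition helix, residues that all these stretches share.
Dlx1: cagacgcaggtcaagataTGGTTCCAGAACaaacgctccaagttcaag
Dlx2: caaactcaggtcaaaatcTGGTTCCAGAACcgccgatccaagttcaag
Dlx5: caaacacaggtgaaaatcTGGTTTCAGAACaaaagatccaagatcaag
Dlx6: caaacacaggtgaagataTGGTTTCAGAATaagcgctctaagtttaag
Lhx6: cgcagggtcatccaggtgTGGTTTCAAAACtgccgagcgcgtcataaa
Lhx8: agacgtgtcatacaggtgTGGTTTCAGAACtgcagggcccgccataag
Gsx2: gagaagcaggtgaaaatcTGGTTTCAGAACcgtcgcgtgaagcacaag

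The stretches show the family structure at a glance, with the 4 *Dlx* genes sharing most letters and *Lhx6* and *Lhx8* forming a second group. Over the whole homeobox, *Dlx1* and *Dlx6* had 76.7% identical bases, *Lhx6* and *Lhx8* 74.4%, and *Dlx5* and *Lhx6* 40.0%, the range over all pairs being 40.0% to 76.7%. The longest run of bases that any 2 of the 9 genes had in common was 37, between *Dlx6* and *Lhx6*, which is shorter than 1 sequenced read, and the neighbours *Dlx1* and *Dlx2* had no common run over 15.

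*Dlx1* and *Dlx2* lie side by side on chromosome 2 and *Dlx5* and *Dlx6* on chromosome 6. In mm10 *Dlx1* covers chr2:71528113-71533981 on the plus strand and *Dlx2* chr2:71543408-71546754 on the minus strand. *Dlx6* covers chr6:6863334-6868568 on the plus strand and *Dlx5* chr6:6877805-6882085 on the minus strand. Of the other members, *Lhx6* lies at chr2:36081953-36105408 (minus), *Lhx8* at chr3:154306294-154330659 (minus), *Nkx2-1* at chr12:56531958-56536908 (minus), *Gsx2* at chr5:75075601-75077893 (plus) and *Sp8* at chr12:118846329-118852576 (plus). Of the exon bases of *Dlx1*, 6.21% also belong to *Dlx1as* on the other strand, and of those of *Dlx6*, 4.38% to *Dlx6os2*. Of the exon bases of *Lhx6*, 2.16% belong also to *Gm27953* on the same strand, and the other 6 members share none. The study states no strand setting for its counting, so reads from bases shared across strands cannot be assigned to a strand.

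Depth was similar across the brains, with 25320109 to 29105710 counts assigned to genes per library, and no difference between the totals of the groups was detectable (exact permutation test, two-sided, p = 0.886). Every member had at least 82 counts in every brain, *Gsx2* having the fewest (82 to 115) and *Dlx1* the most (5018 to 5918). Levels below are CPM (counts scaled to a common library size) after TMM scaling, and Log2FC values are stress vs. control from the model with sex as a covariate.

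Relative to exon length, the factors covered a range from 35.5 CPM per kb for *Dlx1* to 2.12 CPM per kb for *Gsx2* in the control brains. *Dlx2* followed *Dlx1* with 18.2 ± 0.914 CPM per kb, then *Lhx6* with 13.1 ± 0.502, *Dlx5* with 10.8 ± 0.203 and *Nkx2-1* with 10.2 ± 0.837 (SD, n = 4 control brains). *Dlx6* had 6.55 ± 0.363, *Lhx8* 4.32 ± 0.333 and *Sp8* 3.49 ± 0.0785 CPM per kb. Over all 8 brains the ranges of *Lhx6* and *Dlx5* overlapped, as did those of *Dlx5* and *Nkx2-1*, and all other neighbours in this order were apart in every brain. In mean level per kb over all 8 brains, *Dlx1* exceeded 92.9% of all genes tested, and *Gsx2* exceeded 37.6%.

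**Figure D1:**
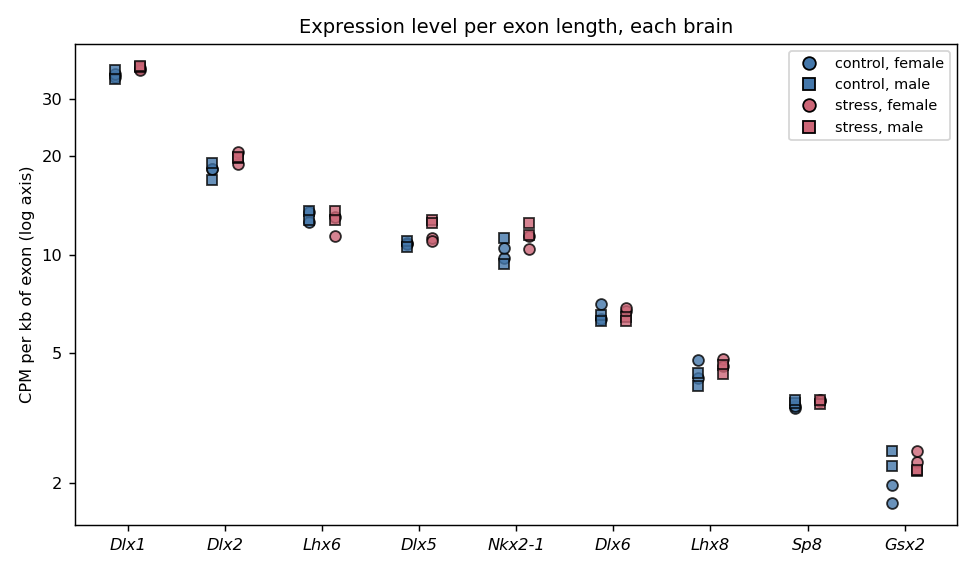
CPM per kb of exon on a log axis for the 9 transcription factors in each of the 8 brains, circles for females and squares for males, control in blue and stress in red. The order runs from Dlx1 (35.5 CPM per kb in controls) to Gsx2 (2.12), and the spread within a gene is small beside the distance between most genes.

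*Nkx2-1*, the selector gene of the medial eminence, is also used in part of the hypothalamus. Its level in the control brains was 27.7 (F36), 29.7 (F37), 32.0 (M30) and 26.6 CPM (M31). In the stressed brains it was 32.5 (F34), 29.7 (F35), 32.7 (M28) and 35.4 CPM (M29). Stressed brains were the higher ones on the whole, but the groups overlapped, with stressed F35 below control M30 and level with control F37. The means were 29.01 ± 2.38 and 32.6 ± 2.36 CPM (SD, n = 4 each), and the Log2FC was 0.17 (SE 0.053, 95% interval 0.059 to 0.28, adjusted p = 0.0344, edgeR). The exact permutation test over the brains gave p = 0.0857, where the smallest p that 4 against 4 can give is 0.0286. The call was lost when control M31 was left out (Log2FC 0.11, adjusted p = 0.187), and also without control F36 (0.081), stressed F34 (0.103) or stressed M29 (adjusted p = 0.151).

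*Dlx2*, with *Dlx1* the earlier acting pair of the *Dlx* genes, had 52.4 (F36), 52.2 (F37), 54.6 (M30) and 48.3 CPM (M31) in control brains. Stressed brains had 59.1 (F34), 54.2 (F35), 56.4 (M28) and 56.8 CPM (M29). All stressed brains but F35 lay above the highest control, M30, and M31 was again the lowest control. The means were 51.9 ± 2.61 and 56.6 ± 2.01 CPM (SD, n = 4 each), with a Log2FC of 0.13 (SE 0.040, 95% interval 0.045 to 0.21, adjusted p = 0.0333, edgeR). The exact permutation test gave p = 0.0571. With 1 brain left out the call held in 2 of 8 fits, and without control M31 the Log2FC was 0.091 (adjusted p = 0.155). It was also lost without control F36 (0.0588), control F37 (0.0785), stressed F34 (0.126), stressed M28 (0.0695) or stressed M29 (adjusted p = 0.0855). By DESeq2 neither *Dlx2* (adjusted p = 0.0716) nor *Nkx2-1* (adjusted p = 0.0807) was called.

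*Dlx1*, the neighbour of *Dlx2*, had the highest level of the 9. Control brains had 190 (F36), 193 (F37), 198.01 (M30) and 186 CPM (M31), and stressed brains 202 (F34), 198.23 (F35), 203 (M28) and 204 CPM (M29). The groups did not overlap, by a gap of 0.223 CPM between stressed F35 and control M30. Among all genes tested, 8.20% had every stressed brain above every control and 8.22% every stressed brain below. The means were 192 ± 4.92 and 202 ± 2.73 CPM (SD, n = 4 each), and the fitted difference was 5.32%. The Log2FC of 0.075 (SE 0.027) had an adjusted p of 0.0698 in edgeR's test, short of the threshold, and the exact permutation test gave its smallest p, 0.0286.

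*Dlx5* and *Dlx6* act after *Dlx1* and *Dlx2* in the same lineage. *Dlx5* had 24.6 (F36), 24.4 (F37), 24.923 (M30) and 23.8 CPM (M31) in control brains and 25.5 (F34), 24.927 (F35), 28.9 (M28) and 28.3 CPM (M29) in stressed brains. The 2 stressed males stood above all others, while the stressed females sat just above the controls, with a gap between the groups of 0.0037 CPM. The Log2FC was 0.14 (SE 0.047, adjusted p = 0.0554, edgeR), and the gene was called when control F36 (adjusted p = 0.0486) or stressed F35 (adjusted p = 0.0363) was left out.

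*Dlx6* had 16.8, 15.1, 15.5 and 14.9 CPM in control F36, F37, M30 and M31 and 15.9, 16.4, 15.3 and 14.9 CPM in stressed F34, F35, M28 and M29. The values of the groups were interleaved, with means of 15.6 ± 0.862 and 15.6 ± 0.659 CPM (SD, n = 4 each). The Log2FC was 0.0056 with a 95% interval of -0.11 to 0.12, and leaving out 1 brain in turn moved it between -0.029 and 0.033. So within this neighbouring pair *Dlx5* and *Dlx6* had different estimates, but the log2 ratio of *Dlx6* to *Dlx5* moved by -0.13 with p = 0.286 (exact permutation test, adjusted over 3 ratios 0.286).

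The log2 ratio of *Dlx1* to *Dlx2* moved by -0.052 (p = 0.143) and that of *Lhx8* to *Lhx6* by 0.13 (p = 0.2), both with an adjusted p of 0.286 in the exact permutation test. A shift in balance within the *Dlx* pairs or the LIM pair was not detectable beyond the spread between brains. The transcripts on the opposite strand at the *Dlx* loci were not called either. *Dlx1as* had 6.86 ± 0.157 CPM in control and 6.64 ± 0.522 CPM in stressed brains (SD, n = 4 each), and *Dlx6os1*, a long noncoding RNA at the *Dlx5* and *Dlx6* locus, 77.7 ± 2.65 and 78.7 ± 1.97 CPM.

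**Figure D2:**
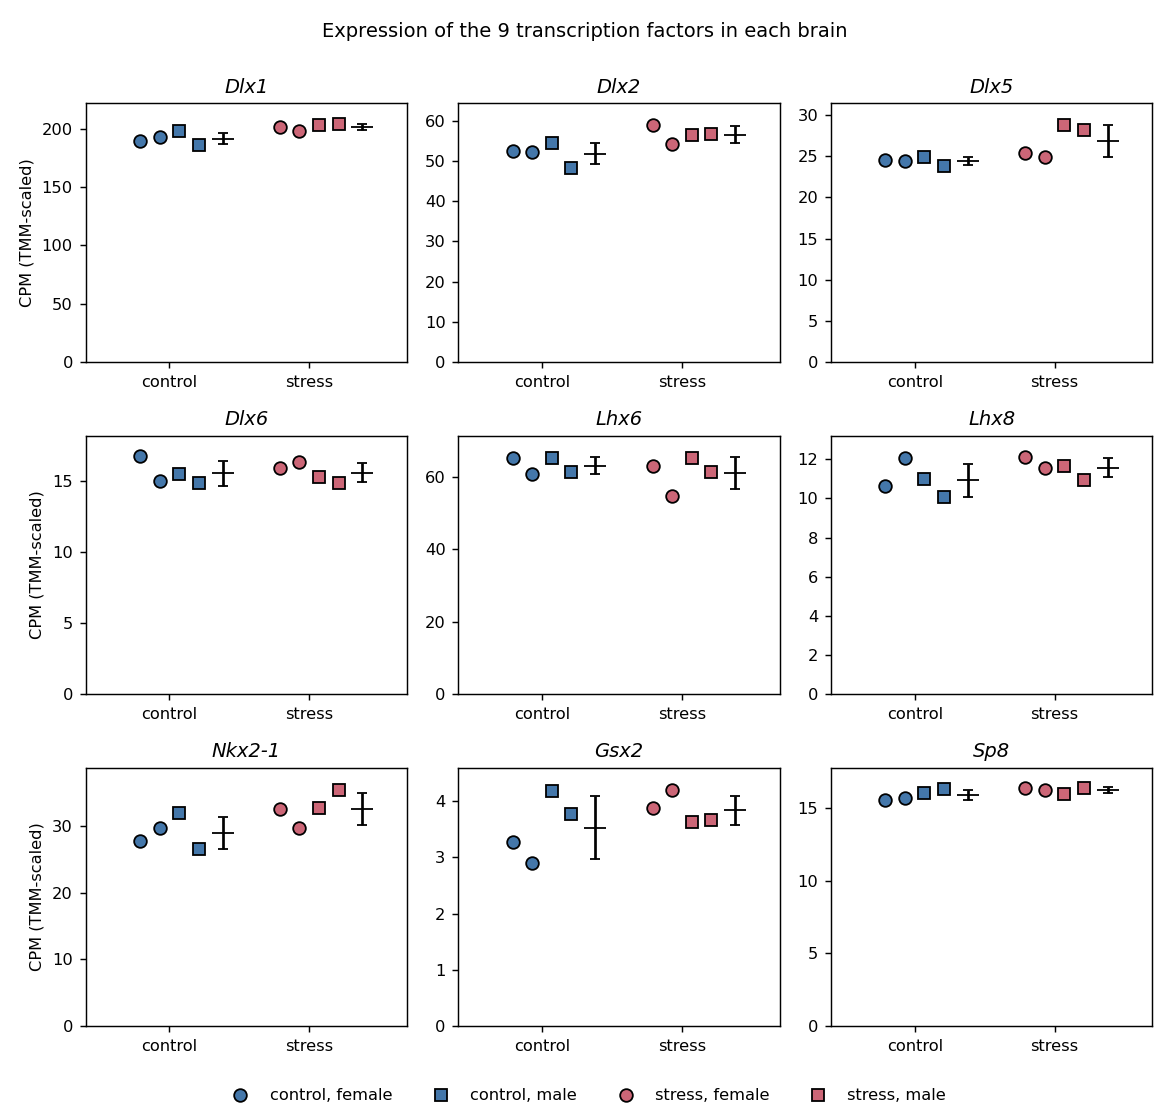
CPM of each transcription factor in each brain, from 0, control in blue and stress in red, circles for females and squares for males, with the group mean and SD (n = 4) at the right of each group. The stressed brains lay above all controls for Dlx1 and Dlx5, by gaps of 0.223 and 0.0037 CPM, and the groups overlapped for the other 7.

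*Lhx6*, the LIM homeobox gene that acts downstream of *Nkx2-1* in cortical interneurons, was the one member with an estimate below 0. Control brains had 65.1 (F36), 60.7 (F37), 65.3 (M30) and 61.3 CPM (M31), and stressed brains 62.9 (F34), 54.8 (F35), 65.3 (M28) and 61.3 CPM (M29). Stressed F35 was the lowest brain and the others lay within the control range or at its upper edge. The Log2FC was -0.046 (SE 0.042, 95% interval -0.13 to 0.040, adjusted p = 0.531, edgeR). Without stressed F35 it was -0.0017.

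*Lhx8*, needed for cholinergic neurons of the basal forebrain, had 10.6 (F36), 12.1 (F37), 10.99 (M30) and 10.1 CPM (M31) in control and 12.1 (F34), 11.6 (F35), 11.6 (M28) and 10.95 CPM (M29) in stressed brains. The highest control, F37, was level with the highest stressed brain, F34. The Log2FC was 0.083 (SE 0.067, adjusted p = 0.474, edgeR), and the 95% interval of -0.056 to 0.22 left room for a change of the size seen in *Nkx2-1*.

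*Gsx2*, the earliest of the progenitor factors, had 3.28 (F36), 2.89 (F37), 4.17 (M30) and 3.76 CPM (M31) in control and 3.87 (F34), 4.19 (F35), 3.62 (M28) and 3.66 CPM (M29) in stressed brains. The control males were higher than the control females, and the stressed brains lay between or just above them. At this depth the interval was the widest of the 9, with a Log2FC of 0.12 (SE 0.12, 95% interval -0.12 to 0.36, adjusted p = 0.563, edgeR).

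*Sp8* had 15.5 (F36), 15.7 (F37), 16.0 (M30) and 16.3 CPM (M31) in control and 16.3 (F34), 16.2 (F35), 15.9 (M28) and 16.3 CPM (M29) in stressed brains. The stressed values fell in the upper part of the control range or just above it. The Log2FC was 0.029 (SE 0.054, 95% interval -0.082 to 0.14, adjusted p = 0.789, edgeR).

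The same brains stood at the ends for several members. Among the controls M30 was the highest and M31 the lowest for *Dlx1*, *Dlx2*, *Dlx5* and *Nkx2-1*, and among the stressed brains F35, which had the fewest counts in all, was the lowest for these genes and for *Lhx6*. In bulk RNA, fewer cells of a type and less RNA per cell cannot be told apart, and the share of ventral tissue in each sample was not measured.

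**Figure D3:**
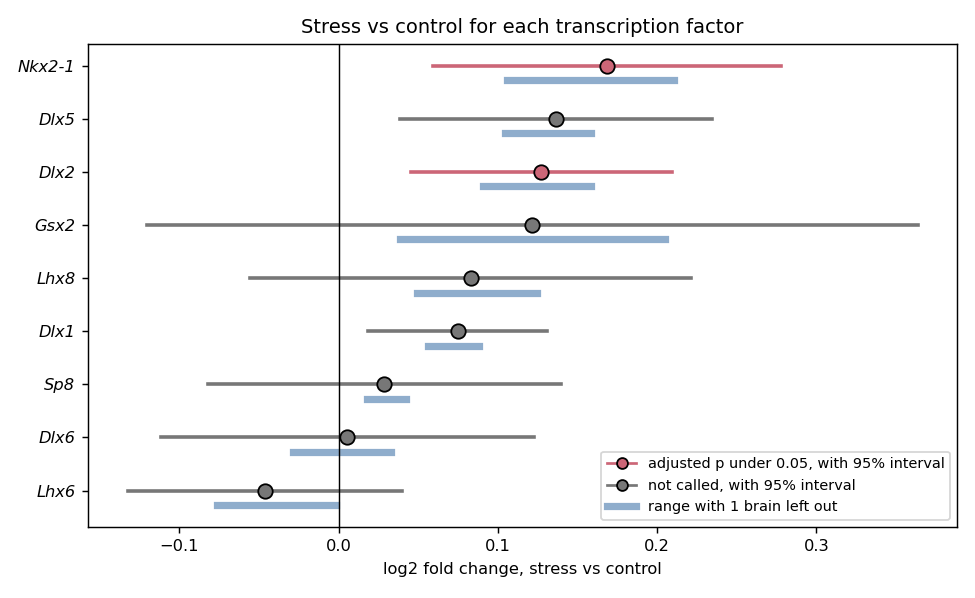
Log2 fold change (stress vs. control) of each transcription factor with its 95% interval, red where the adjusted p was under 0.05 and grey otherwise, and a blue bar for the range of the estimate when each of the 8 brains was left out in turn. The intervals of Nkx2-1, Dlx5, Dlx2 and Dlx1 lay above 0, those of the other 5 included 0, and the blue bar of Dlx6 crossed 0.

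The study separated the sexes, which are 2 against 2 brains here, too few for an exact test within a sex to reach 0.05. The values within each sex below came from the model with a sex by stress interaction over all 8 brains. Their SE and adjusted p thus rest on a spread estimated from both sexes together. *Dlx2* had positive estimates in females (Log2FC 0.11, SE 0.057) and in males (0.14, SE 0.056), and *Nkx2-1* likewise with 0.12 (SE 0.076) and 0.22 (SE 0.074). *Dlx5* was the one member called within a sex in that model, with 0.23 (SE 0.061, adjusted p = 0.0248, edgeR) in males and 0.039 (SE 0.063, adjusted p = 0.806) in females. The share of all genes called within a sex is not given here, so this call cannot be set against it. *Gsx2* had estimates of opposite sign, 0.39 (SE 0.16) in females and -0.12 (SE 0.15) in males, and each stressed brain lay on that side of both controls of its sex.

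The difference between the sexes was tested as a sex by stress interaction over all 8 brains. None of the 9 was called, where 0.00560% of all genes tested were, 1 gene by edgeR's test, with 1128 genes at an unadjusted p under 0.05. The smallest p-values among the members were those of *Gsx2* (male minus female Log2FC -0.51, SE 0.22, unadjusted p = 0.0275, adjusted p = 0.718, edgeR) and *Dlx5* (0.19, SE 0.088, unadjusted p = 0.0421, adjusted p = 0.765). These data do not establish a different response of the sexes for any of the 9.

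**Figure D4:**
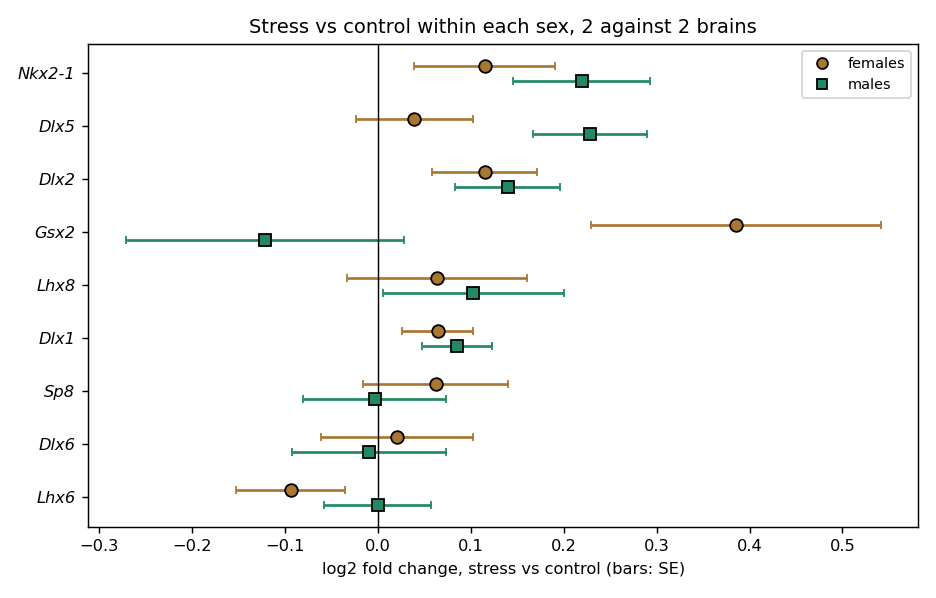
Log2 fold change (stress vs. control) of each transcription factor in females (circles) and males (squares), 2 stressed against 2 control brains each. Bars give the SE from the model with the interaction over all 8 brains. The estimates of the sexes were far apart for Gsx2 (0.39 and -0.12) and Dlx5 (0.039 and 0.23), with adjusted interaction p-values of 0.718 and 0.765.

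Other genes of the ventral forebrain programme were read in the same fit. In 6 lists of 65 genes, all tested, 6 genes were higher and 16 lower, and 43 were not called. The lists were compiled from known roles, with earlier results of these data known, and each count is read against the 6.49% higher and 7.27% lower among all genes. The RNA was of bulk brain, so the cells and regions in which these genes differed cannot be told apart.

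Among 11 other transcription factors of eminence progenitors, 3 were higher and 1 lower, with a median Log2FC of 0.089. *Otx2* rose from 38.1 ± 2.81 to 43.2 ± 1.28 CPM (SD, n = 4 each, Log2FC 0.19, SE 0.041, adjusted p = 0.00294, edgeR). Whether *Otx2* rose in the eminences or in other regions of the brain was not tested. *Olig1*, a factor of oligodendrocyte precursors and ventral progenitors, fell from 48.3 ± 3.21 to 40.3 ± 0.515 CPM (Log2FC -0.26, adjusted p = 0.000149), every stressed brain lying below every control.

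Of 14 factors of the interneuron lineage, 2 were higher, 3 lower and 9 not called, with a median Log2FC of -0.013. *Sox6*, which acts after *Lhx6* in interneurons of the medial eminence, rose by 10.1% (Log2FC 0.14, SE 0.035, adjusted p = 0.00874, edgeR), and *Nr2f2*, the factor of the caudal eminence also called COUP-TFII, by 7.62% (Log2FC 0.11, adjusted p = 0.0197). *Npas1* fell from 9.99 ± 0.225 to 7.78 ± 1.19 CPM (Log2FC -0.36, SE 0.086, adjusted p = 0.00579), and *Zeb2* and *Maf*, a pair of factors of migrating interneurons, had Log2FC values of -0.11 (adjusted p = 0.0125) and -0.14 (adjusted p = 0.0304). *Sox6*, *Zeb2* and *Nr2f2* are also expressed in other cells of the fetal brain.

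The genes that make and move GABA, the transmitter of these neurons, were not called in either direction. *Gad1* and *Gad2*, the synthesizing enzymes, had 164 ± 3.12 and 138 ± 2.73 CPM in control and 159 ± 2.12 and 143 ± 3.98 CPM in stressed brains (SD, n = 4 each), with Log2FC values of -0.048 and 0.054. *Abat*, which breaks GABA down, had the smallest p of the 5, with a Log2FC of -0.053 (SE 0.028, adjusted p = 0.237, edgeR).

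By contrast, 5 of 10 interneuron peptides, calcium-binding proteins and migration receptors were lower and none higher, with a median Log2FC of -0.12. *Sst*, the peptide of a large class of interneurons from the medial eminence, fell from 64.1 ± 0.903 to 56.6 ± 1.61 CPM (SD, n = 4 each, Log2FC -0.18, SE 0.034, adjusted p = 0.000677, edgeR). *Calb2* (calretinin) had a Log2FC of -0.23 (adjusted p = 0.000801) and *Calb1* (calbindin) of -0.17 (adjusted p = 0.0170), and for these 3 genes the groups did not overlap. *Npy* and *Nrp1* were the other 2 that were lower. Whether these genes were lower in interneurons or in other cells of the brain was not tested. The summed CPM of the list ran from 570 to 590 in control and from 538 to 547 in stressed brains.

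Striatal projection neurons arise from the lateral eminence under the *Dlx* genes. Of 17 of their genes, 1 was higher and 6 lower, with a median Log2FC of -0.028. *Penk*, which encodes enkephalin, fell from 15.7 ± 0.947 to 11.9 ± 1.27 CPM (SD, n = 4 each, Log2FC -0.40, SE 0.071, adjusted p = 0.000399, edgeR), and *Drd2*, the dopamine receptor of the same neurons, from 10.7 ± 0.303 to 8.33 ± 0.658 CPM (Log2FC -0.37, adjusted p = 0.00100). *Rxrg* had a Log2FC of -0.30 (adjusted p = 0.00193), and *Adora2a* and *Ppp1r1b*, both genes of maturing striatal neurons, were among the others that were lower. *Ebf1*, an early factor of the direct-pathway neurons, rose from 73.0 ± 4.17 to 84.3 ± 8.55 CPM (Log2FC 0.21, adjusted p = 0.00198).

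The direct-pathway genes *Drd1* (Log2FC -0.054, adjusted p = 0.729, edgeR) and *Tac1* (Log2FC -0.020, adjusted p = 0.859), named here after their values were seen, were not called. Whether they differed from the indirect-pathway genes *Penk* and *Drd2* was not tested. Of 8 genes of cholinergic neurons, to which *Lhx8* leads, *Ache*, the acetylcholinesterase, was lower (Log2FC -0.26, SE 0.046, adjusted p = 0.000391, edgeR), and none was higher. *Chat*, the enzyme that defines these neurons, had 0.886 ± 0.143 CPM in control and 0.875 ± 0.240 CPM in stressed brains (SD, n = 4 each).

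**Figure D5:**
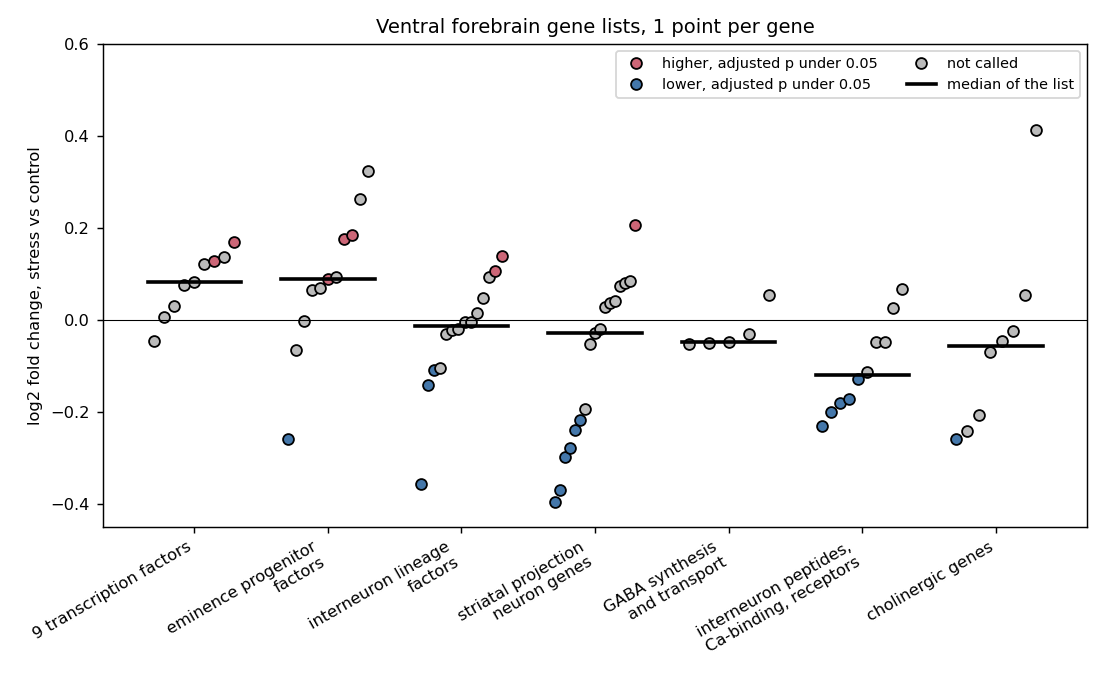
Log2 fold change (stress vs. control) of every tested gene of 7 ventral forebrain lists, 1 point per gene, red where higher and blue where lower at an adjusted p under 0.05, with a black line for the list's median. The transcription factors had a median of 0.083, the interneuron peptides, calcium-binding proteins and receptors one of -0.12 with 5 of 10 lower, and the 5 GABA genes had none called.

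Genes that mark other regions and cells were read in the same fit. Of 10 markers of the dorsal forebrain 6 were higher and 1 lower, with a median Log2FC of 0.12. *Eomes* (0.25, adjusted p = 8.4e-06), *Neurog2* (0.24, adjusted p = 0.000169) and *Emx2* (0.22, adjusted p = 0.00164, edgeR) were the leading ones that rose. The summed level of the list was 1218 to 1235 CPM in control and 1269 to 1324 CPM in stressed brains. So dorsal telencephalic markers were higher in the same brains as *Dlx2* and *Nkx2-1*, and the part of a larger share of telencephalon in the dissected tissue was not tested.

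*Nkx2-1* is also a gene of the hypothalamus, and of 6 tested markers of hypothalamus and prethalamus *Otp* was higher (Log2FC 0.15, SE 0.049, adjusted p = 0.0432, edgeR), with a median of 0.16 over the list. Their summed level was 45.4 to 50.1 CPM in control and 49.9 to 51.7 CPM in stressed brains, and *Rax* did not pass the filter. Of the exon bases of *Rax*, 49.0% also belong to *Raxos1* on the other strand, so its level is uncertain. Of 8 markers of midbrain and hindbrain, *Tal1* was higher (Log2FC 0.16, adjusted p = 0.0206) and none lower, with summed levels of 91.2 to 102 and 95.9 to 107 CPM. The part of the hypothalamus in the *Nkx2-1* result was not tested.

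Outside the brain, *Nkx2-1* is used in thyroid and lung, and the *Dlx* and *Lhx* genes in the facial mesenchyme. Of 6 markers of thyroid, lung and pituitary, 5 did not pass the filter on low counts, among them *Tg*, *Sftpc*, *Scgb1a1* and *Pou1f1*, and the 6 summed to 0.946 to 1.51 CPM in control and 0.802 to 1.05 CPM in stressed brains. Of 8 markers of facial mesenchyme and olfactory epithelium 3 were tested and none called, *Gnrh1* having the smallest p (Log2FC -0.27, adjusted p = 0.406, edgeR). *Kdr* and *Cldn5*, 2 of 4 endothelial markers, were lower (Log2FC -0.29 and -0.13, adjusted p = 8.3e-05 and 0.0267), none of 4 microglial markers was called, *P2ry12* having the smallest p (adjusted p = 0.257), and of 6 erythroid markers *Hbb-y* was higher (Log2FC 0.84, adjusted p = 0.000120) and *Hbb-bs* lower (Log2FC -0.14, adjusted p = 0.00976). Endothelial markers summed to 114 to 125 CPM in control and 102 to 112 CPM in stressed brains.

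The promoters of the *Dlx* pair on chromosome 2 and of *Nkx2-1* are shown because edgeR called *Dlx2* and *Nkx2-1*, and *Dlx1* is the neighbour of *Dlx2*. A difference in response between *Dlx1* and *Dlx2* was not detectable (log2 ratio, exact permutation test, p = 0.143). Each is the 300-base RefSeq promoter entry (GRCm38.p6), read on the strand of the gene. They lie at chr2:71529195-71529494 (*Dlx1*, plus), chr2:71546705-71547004 (*Dlx2*, minus) and chr12:56536859-56537158 (*Nkx2-1*, minus). The *Dlx1* entry lies inside the span counted for that gene, downstream of its start. Capitals mark CACGTG, an E-box, and CCAAT, the motif of the factor NFY, written as ATTGG where it lies on the other strand.
Dlx1: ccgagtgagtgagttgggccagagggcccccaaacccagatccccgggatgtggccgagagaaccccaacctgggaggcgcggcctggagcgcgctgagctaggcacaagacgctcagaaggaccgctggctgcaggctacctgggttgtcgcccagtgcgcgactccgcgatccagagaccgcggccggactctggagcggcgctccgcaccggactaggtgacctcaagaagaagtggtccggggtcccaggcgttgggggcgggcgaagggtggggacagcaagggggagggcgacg
Dlx2: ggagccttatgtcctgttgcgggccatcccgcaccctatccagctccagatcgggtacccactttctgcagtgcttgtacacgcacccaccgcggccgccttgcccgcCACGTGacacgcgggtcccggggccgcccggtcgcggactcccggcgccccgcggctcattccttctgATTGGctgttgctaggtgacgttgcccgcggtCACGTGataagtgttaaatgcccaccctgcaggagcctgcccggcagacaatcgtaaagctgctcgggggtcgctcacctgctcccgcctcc
Nkx2-1: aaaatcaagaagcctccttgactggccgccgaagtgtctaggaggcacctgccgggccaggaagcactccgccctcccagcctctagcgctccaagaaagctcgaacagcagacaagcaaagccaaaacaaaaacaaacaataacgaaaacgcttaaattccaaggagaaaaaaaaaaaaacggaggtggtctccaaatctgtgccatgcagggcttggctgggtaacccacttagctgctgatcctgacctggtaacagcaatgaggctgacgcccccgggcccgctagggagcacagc

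The *Dlx2* entry held CACGTG at 2 places and CCAAT at 1, and the *Dlx1* and *Nkx2-1* entries held neither. Of all 32851 promoter entries, 7.15% held CACGTG and 37.4% held CCAAT on either strand. CACGTG was added to the search after these sequences had been read. TAATTA, the homeodomain core (in 5.29% of all entries), CAGCTG, another E-box (16.3%), and CAAGTG, the core that NKX2-1 binds (13.6%), were in none of the 3. CACGTG reads the same on both strands, as do TAATTA and CAGCTG, and none of the 5 motifs can lie within another.

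Entries were found for 7 of the 9 members, 11 in all, with 3 each for *Lhx6* and *Sp8*. CAGCTG occurred at 2 places in 1 *Lhx6* entry (chr2:36105359-36105658), TAATTA and CAAGTG at 1 place each in 1 *Sp8* entry (chr12:118847309-118847608), and CACGTG at 1 place in the *Gsx2* entry (chr5:75075351-75075650). CCAAT was in 5 of the 11 entries, those being 1 of *Dlx2*, 2 of *Lhx6* and 2 of *Sp8*. These are matches of letters in a window, and no binding was measured here.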

How the data were processed

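Total RNA of each fetal brain was sequenced by the authors after capture of mRNA on oligo(dT) beads. Per the study's methods and the submitters' processing notes, reads were trimmed with Trim Galore, aligned to mm10 with TopHat2 2.1.1 and counted per gene over exons with featureCounts 1.6.3 and GENCODE vM20, and the deposited values are raw counts. No setting for strand, multi-mapped or overlapping reads is stated, so these followed the tool's defaults. Symbols came from GENCODE vM21, which matched 54723 of 54752 identifiers.

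Here genes were kept by filterByExpr (minimum count 10, by group), scaled by TMM and tested with edgeR 4.0.16 (limma 3.58.1, R 4.3.3), glmQLFit and glmQLFTest, with sex and condition in the model and Benjamini-Hochberg adjustment over all 17865 genes. A model with a sex by stress interaction was also fitted over all brains, and the values within each sex were taken from it. Ratios and single genes were compared by exact permutation tests, two-sided. With 4 brains per group the p-values measure the spread among littermates. Alternatives were DESeq2 1.42.0, other scalings, no filter, no sex term and each brain left out. The code was tested on simulated data, in which 200 of 17865 genes were changed by a log2 of 0.5. There edgeR recovered 74.5% of them with 15 false calls, and DESeq2 70.0% with 3. Changes as small as those of *Dlx2* and *Nkx2-1* were not simulated.

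All 9 members are named, and from every other list up to 3 genes with the smallest p in each direction among those called, or otherwise the 1 with the smallest p. A few more are named as members of a counted group, after their values were seen. The members and lists were chosen with earlier results of these data known. The sequences came from GENCODE vM21 transcripts and RefSeq promoter entries. Protein sequences were not used here, and some genes that this rule names and 1 homeobox stretch are not reported here.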

Additional observations from a re-analysis of the deposited data

How the results depend on the processing

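No member was called lower under any setting run, and the direction of every member but *Dlx6* held under all of them. The number of members called higher, 2 with all brains, was 0 by DESeq2 and 1 without the sex term, and 0 to 3 when 1 brain was left out. *Dlx2* was called in 4 of the 5 other settings and in 2 of 8 fits without 1 brain, *Nkx2-1* in 3 of 5 and 4 of 8, *Nkx2-1* having an adjusted p of 0.0849 without the sex term. The Log2FC of *Dlx6* reversed without control F37 (-0.029), control M31 (-0.0033), stressed F35 (-0.0066) or stressed M28 (-0.00075), its range being -0.029 to 0.033. Over all genes DESeq2 called 748 higher, and with 1 brain left out 736 to 1057 were higher and 854 to 1308 lower, the lowest counts being those without stressed M29. The cause was not tested. The 3 ratios and the interaction kept their calls. That *Dlx1* and *Dlx5* did not overlap held under 4 scalings, 3 of them added after the data were seen, though the smallest gap for *Dlx5* was 0.0011 CPM with library totals alone. No paired analysis was possible because the labels give the 2 groups no replicate numbers in common. Depth limited *Gsx2* most, with 82 to 115 counts per brain.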

Other observations

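Paralogs of the members with their main use in other tissues had low counts or none. *Dlx3*, *Dlx4*, *Sp6* and *Sp7* did not pass the filter on low counts, *Sp6* having no count in any brain. Of the exon bases of *Sp6*, 86.7% also belong to *Gm11532* on the other strand, so its missing counts cannot show that it was absent. *Nkx2-4*, a close relative of *Nkx2-1* in the hypothalamus, had 2.05 ± 0.195 CPM in control and 1.74 ± 0.482 CPM in stressed brains (SD, n = 4 each, Log2FC -0.23, adjusted p = 0.427, edgeR).

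For 7 members, the gene among the 65 of the 6 ventral lists whose log2 CPM varied most like it around the group means over the 8 brains was taken by Pearson's r. It was *Vax1* for *Dlx1* (0.78), *Nr2f1* for *Dlx5* (0.82) and *Ache* for *Dlx6* (0.80). It was *Ngfr* for *Lhx6* (0.94), *Nkx6-2* for *Lhx8* (0.87), *Satb1* for *Gsx2* (0.87) and *Sox6* for *Sp8* (0.82). These are the highest of 65 values over 8 brains of 2 litters, and no test was made of them. The 9 members were not among the candidates. Between members, *Dlx1* had an r of 0.95 with *Nkx2-1* and of 0.80 with *Dlx2*, both above that with *Vax1*. Of all 36 pairs of members, 18 had an r above 0.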
